A study of Mus musculus with 2 samples.

Results

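The phagocyte NADPH oxidase is the enzyme with which neutrophils turn oxygen into superoxide. Among 21911 protein-coding genes, 7 were examined for open chromatin in cells labelled as mouse blood neutrophils. They are genes of this complex and Hvcn1, whose proton channel balances the charge that the enzyme moves. The genes were chosen by name, with earlier results of these data known. Of these genes 3 encode proteins that sit in the membrane (Cybb, Cyba and Hvcn1) and 4 encode proteins that wait in the cytosol (Ncf1, Ncf4, Rac1 and Rac2). In both replicates, 5 of the 7 had an open promoter, against 39.8% of all protein-coding genes, and the exceptions were Cybb and Cyba, the 2 genes of the membrane-bound catalytic core. All 5 open promoters had values below that of the median open promoter. The strongest distal region had a higher value than the promoter at 7 of 7 genes in replicate 1, against 43.4% of genes with both. In replicate 2 it was higher at 4 of 5, against 33.1%. The 7 genes also had more distal regions from which the strongest was taken, a median of 4 against 1 over all protein-coding genes in replicate 1. The promoter region counted for Cybb in replicate 1 lay inside the gene, away from its coding starts. Promoters of B cell marker genes were open as well as those of neutrophil markers, and the part of B cells was not tested.

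The cells were labelled as neutrophils, primary cells of peripheral blood from C57BL/6J mice, adults of 5 to 6 weeks. No treatment was named and no sex recorded. Open chromatin was mapped by ATAC-seq, in which a transposase cuts and tags accessible DNA, from 50000 cells in each of 2 libraries, labelled biological replicates 1 and 2. These form 1 group, so no condition was compared with another. Both replicates cite 1 donor record but separate biosample records, and the labels do not say whether they came from separate mice, so the spread between them may be technical. The labels name no sort or purification step.

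In a resting neutrophil the oxidase is held apart. Cybb encodes NOX2, the catalytic subunit that carries electrons from NADPH across the membrane to oxygen, and Cyba encodes the small partner that stabilises it. On stimulation the organiser encoded by Ncf1, its companion encoded by Ncf4 and a Rac GTPase move from the cytosol to the membrane and switch the enzyme on. Hvcn1 encodes the voltage-gated proton channel that carries out protons to balance the charge moved by the enzyme. Inherited loss of the core subunits causes chronic granulomatous disease, in which phagocytes cannot kill many microbes.

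A peak here is an interval that the authors' processing listed as open. Overlapping peaks were merged into regions, and a promoter counted as open when a region overlapped 1 kb on either side of any annotated start site of the gene. A distal region had its summit, the position of highest signal, over 1 kb from every start site of any gene and no more than 50 kb from where the gene's 5'-most transcript starts. The value given for a region is the signal value of its strongest peak, a score by the authors that has no unit and describes peaks within 1 list. The main lists were those that passed a threshold on the irreproducible discovery rate (IDR), which scores how well peaks repeat between 2 sets of reads. They held 27709 regions in replicate 1 and 14548 in replicate 2. The less strict lists of peaks repeated in pseudoreplicates held 47640 and 29848, and the conservative IDR list of both replicates together held 24882. Distances are negative upstream and positive downstream of a start site, and coordinates are on mm10 (GRCm38), counted from 1.

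The label of the cells was set against marker genes. Open promoters in replicate 1 were found at 10 of 12 neutrophil markers, with values between 4.77 and 13.9 that summed to 78.1, and at 3 of 12 in replicate 2 (S100a9, Mmp8 and Cxcr4), where they summed to 29.2. Ly6g and Fpr1 had none in either replicate. Of 8 B cell markers, 7 were open in replicate 1, with values between 5.98 and 23.7 that summed to 92.6, and 5 in replicate 2 (Cd79a, Ms4a1, Pax5, Cr2 and Bank1), summing to 66.1. Adgre1 was the 1 open monocyte and macrophage promoter of 8 in replicate 1, and replicate 2 had none. Lck and Cd5 were the 2 open T cell promoters of 6 in replicate 1, and replicate 2 had none. No promoter was open among 5 erythroid and 4 eosinophil markers in either replicate. Of all protein-coding genes, 47.1% were open in replicate 1 and 40.3% in replicate 2. Distal regions in both replicates were found at 6 of 12 neutrophil, 4 of 8 B cell and 3 of 8 monocyte and macrophage markers. They were also found at 2 of 6 T cell, 1 of 5 erythroid and 3 of 4 eosinophil markers, against 27.5% of all protein-coding genes. The part of B cells in the values below was not tested at any of the 7 genes. B cells are also known to use genes of this set, Hvcn1 and Rac2 among them.

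RefSeq's promoter table for GRCm38.p6 held 3 of the 7 genes, Cybb, Cyba and Ncf1, and did not match Hvcn1, Ncf4, Rac1 or Rac2. The 250 bases before the start are printed 5′ to 3′ on the gene's own strand, because these are the promoters at which the results part: Cybb and Cyba had no region in the IDR list of replicate 2 and Ncf1 had one in both. Capitals mark letters of 12 motif strings searched on both strands.
Cybb promoter, chrX:9469325-9469574, minus strand: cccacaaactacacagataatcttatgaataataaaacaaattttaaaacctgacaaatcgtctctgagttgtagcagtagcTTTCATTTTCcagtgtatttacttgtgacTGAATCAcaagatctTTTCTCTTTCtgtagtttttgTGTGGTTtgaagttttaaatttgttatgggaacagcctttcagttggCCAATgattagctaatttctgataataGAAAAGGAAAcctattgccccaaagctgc
Cyba promoter, chr8:122432941-122433190, minus strand: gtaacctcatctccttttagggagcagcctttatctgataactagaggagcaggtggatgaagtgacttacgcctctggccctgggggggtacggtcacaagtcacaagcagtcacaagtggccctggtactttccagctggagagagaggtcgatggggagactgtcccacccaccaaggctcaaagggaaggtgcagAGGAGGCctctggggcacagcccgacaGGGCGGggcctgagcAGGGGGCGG
Ncf1 promoter, chr5:134229626-134229875, minus strand: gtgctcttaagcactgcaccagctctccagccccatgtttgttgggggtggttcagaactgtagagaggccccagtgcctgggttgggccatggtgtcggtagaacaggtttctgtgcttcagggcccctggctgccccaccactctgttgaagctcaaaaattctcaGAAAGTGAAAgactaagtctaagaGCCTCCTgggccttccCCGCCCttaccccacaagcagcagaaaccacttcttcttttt

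The Cybb promoter held 3 matches to an interferon regulatory factor (IRF) string, 2 GAAA units with any 2 bases between them, at -168 to -159, -124 to -115 and -29 to -20. It also held the AP-1 string TGANTCA at -139 to -133, the RUNX string TGTGGTT at -103 to -97 and the NFY string CCAAT at -56 to -52. The IRF string was found in 2.98% of 32851 promoters of the same length, and Ncf1 carried it as well, at -82 to -73. The Cyba promoter had no such match and carried GGGCGG, the SP/KLF string, at -24 to -19 and at -6 to -1, and AGGNGGC, a short core of the CTCF motif, at -51 to -45 and at -9 to -3. The last GGGCGG and AGGNGGC matches overlapped each other. Both strings were also present in the Ncf1 promoter, at -42 to -37 for GGGCGG and -58 to -52 for AGGNGGC. They are common, found in 32.7% and 25% of promoters. A match is a run of letters and not a measured binding site.

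Cybb had no IDR peak at a start of either of its protein-coding transcript forms in either replicate. The gene runs on the minus strand of chromosome X from 9435252 to 9487771, a length of 52.5 kb, and has 5 annotated start sites. Of these, 2 belong to protein-coding transcripts, the 5'-most at 9487771 and another 18447 bp downstream at 9469324, which is the start that the RefSeq promoter above adjoins. Near this downstream start the ranked list of replicate 1 held a single peak with its summit 48 bp inside the gene, a signal value of 4.02 and an IDR of 0.389, above the threshold of 0.05. Replicate 2 had no ranked peak within 1 kb of either coding start.

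Under the rule of any start site, Cybb still counted as open in replicate 1, with a value of 8.68. That region, chrX:9452447-9452710, had its summit 1046 bp upstream of the start of a retained-intron transcript inside the gene, 16745 bp downstream of the nearest coding start. Replicate 2 had no region there in either of its lists, and the conservative list had none. The stronger Cybb region in replicate 1 lay in an intron at chrX:9470819-9471104, with a value of 11.5 and an IDR of 0.00328. Its summit was 16804 bp downstream of the 5'-most start and 1643 bp upstream of the downstream coding start. In replicate 2 it was present in the less strict list, with a value of 7.65 and an IDR of 0.272, and the conservative list gave it 11.7. Another region 32403 bp upstream of the gene, chrX:9520056-9520310, had a value of 10.9 in replicate 1 and 11.4 in the conservative list, and no counterpart in either list of replicate 2.

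Cyba was open at its promoter in replicate 1 and missed the IDR threshold in replicate 2. The gene lies on chromosome 8 from 122424776 to 122432930, minus strand, within the annotated span of Gm20388. Its promoter region in replicate 1, chr8:122432828-122433463, was made of 2 peaks, the stronger with its summit 46 bp upstream of a coding start. The value was 4.77 in replicate 1 (IDR 0.0108), and 5.01 in replicate 2's less strict list, where the IDR was 0.272. The conservative list gave it 5.12. Among the 10317 genes with an open promoter in replicate 1, 0.310% had a lower value. The intron region of Cyba was stronger and was found in both replicates. It lay at chr8:122430059-122430604, 2475 bp downstream of the 5'-most start, with values of 8.47 and 8.94.

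**Figure D1:**
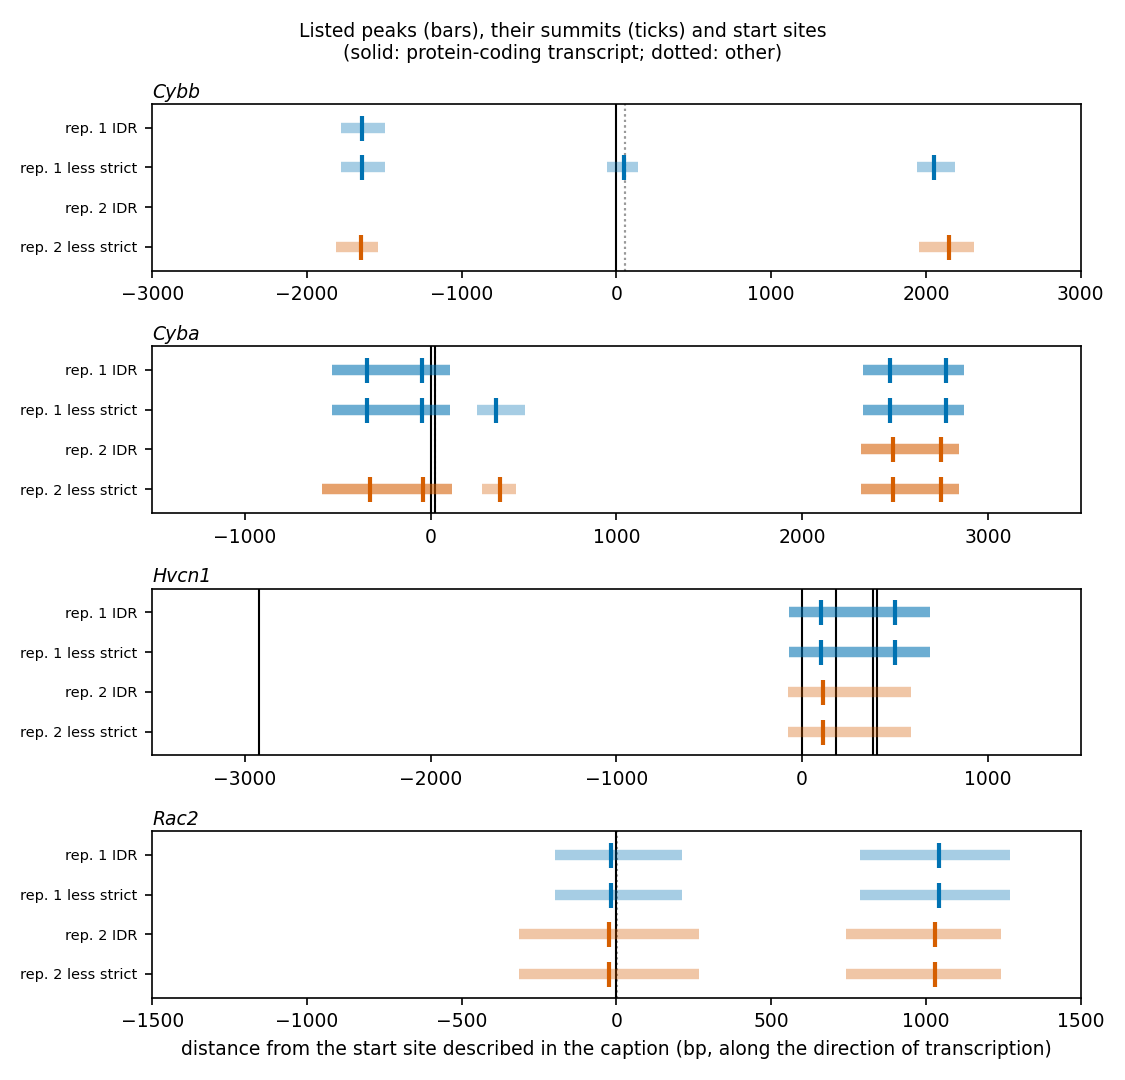
Peaks listed around start sites of Cybb, Cyba, Hvcn1 and Rac2, by distance in bp along the direction of transcription. Bars span peaks, ticks mark summits, solid lines mark starts of protein-coding transcripts and dotted lines other starts, and rows are the IDR and less strict lists of replicates 1 and 2. Zero is the downstream coding start for Cybb, the coding start 2925 bp downstream of the 5'-most for Hvcn1, and the 5'-most start for Cyba and Rac2. Replicate 2 has no bar over a Cybb start, and at the Cyba start it has bars in the less strict row alone.

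Hvcn1, the proton channel, was the 1 membrane gene open in both replicates. It spans 122206804 to 122242297 on the plus strand of chromosome 5 and has 5 coding start sites. The open region, chr5:122209658-122210419, covered the 4 downstream starts, which lie between 2925 and 3330 bp downstream of the 5'-most. No region of either replicate's IDR list touched the 5'-most start window. The values were 9.27 in replicate 1 and 8.39 in replicate 2, a mean of 8.83 ± 0.621 (SD, n = 2), and the conservative list gave 10.3. Of genes with an open promoter, 22.1% had a lower value in replicate 1 and 5.99% in replicate 2.

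Ncf1, the organiser, had the lowest promoter value of the 4 cytosolic genes in both replicates. Its region at chr5:134229382-134229817 had its summit 8 bp downstream of the coding start in replicate 1 and 3 bp downstream in replicate 2. The values were 6.87 and 7.35 (mean 7.11 ± 0.338, SD, n = 2), above 6.33% and 2.23% of open promoters. Ncf4, whose product binds a phosphoinositide on phagosome membranes, had its promoter region at chr15:78244646-78245142, with values of 9.17 and 10.8 (mean 9.96 ± 1.12, SD, n = 2), above 21.5% and 22.2% of open promoters. The SD of Ncf4 was the largest among the 5 genes with a value in both replicates.

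Rac1 is expressed in most tissues, while Rac2 is a form of blood cells. Rac1 was open at chr5:143527892-143528354, with summits 11 bp downstream and 6 bp upstream of a coding start in replicates 1 and 2. Its values were 7.84 and 8.82 (mean 8.33 ± 0.692, SD, n = 2), above 11.8% and 8.19% of open promoters. Rac1 was also the 1 gene of the 7 with a CpG-rich promoter, with an observed-to-expected CpG ratio of 0.861 and a GC content of 68.1%. Among all genes, 66.8% of CpG-rich promoters were open in both replicates against 18.2% of the others. Of the 6 genes with other promoters, 4 were open in both replicates (Hvcn1, Ncf1, Ncf4 and Rac2).

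Rac2 had a pair of regions of similar value about 1 kb apart. At the start site, chr15:78572571-78572983, the value was 9.67 in replicate 1 (summit 17 bp upstream) and 8.22 in replicate 2 (summit 23 bp upstream). In an intron, chr15:78571513-78571996, it was 9.67 in replicate 1 and 10.1 in replicate 2, with summits 1042 and 1028 bp downstream. The intron region touched the promoter window, so it set the promoter value of replicate 2 (mean 9.88 ± 0.297, SD, n = 2, above 25.3% and 16.6% of open promoters), and since its summit lay over 1 kb from any start it also counted as distal. Replicate 1 had a further Rac2 region, with a value of 9.49, at a downstream coding start 7811 bp into the gene.

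**Figure D2:**
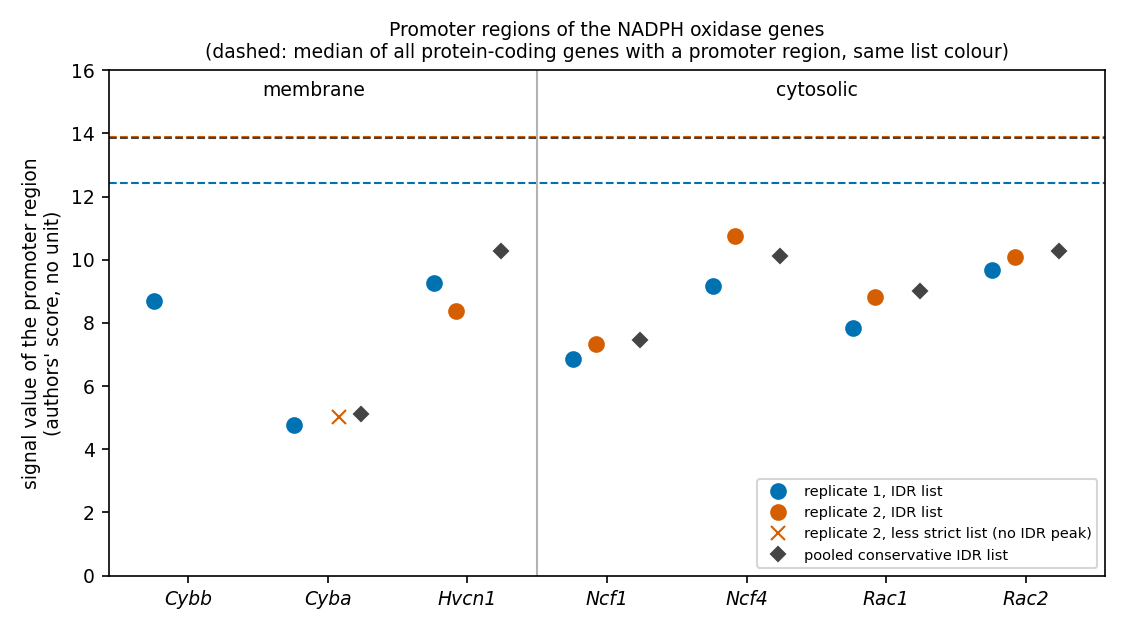
Signal value of the promoter region (vertical axis, the authors' score without unit) for each of the 7 genes. Circles are the IDR lists of replicates 1 and 2, the cross is the less strict list of replicate 2 where it had no IDR peak, diamonds are the conservative list of both replicates, and dashed lines are medians over all protein-coding genes with a promoter region in that list. All circles and diamonds lie below the dashed line of their list.

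Counted together, 7 of the 7 genes were open in replicate 1, against 47.1% of all protein-coding genes, and 5 of 7 in replicate 2, against 40.3%. In both replicates 5 of 7 were open, against 39.8%. With the less strict lists 6 of 7 were open in both, against 49.8%, Cyba having joined, and the conservative list held 6 of 7, against 46.7%. Cybb was the gene missing from both. These counts describe genes chosen by name, and no test was made of them. The median open promoter had a value of 12.4 in replicate 1 and 13.9 in replicate 2, with lower quartiles of 9.63 and 11.1. The 7 values of replicate 1 ran from 4.77 to 9.67 and the 5 of replicate 2 from 7.35 to 10.8.

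Membrane genes had a lower mean promoter value than cytosolic genes in each replicate, by less than the range among the genes. In replicate 1 the means were 7.57 over 3 membrane genes and 8.39 over 4 cytosolic genes, a membrane minus cytosolic difference of -0.813. In replicate 2 they were 8.39, from Hvcn1 alone, and 9.25 over 4, a difference of -0.864. The mean difference was -0.838 ± 0.0359 (SD, n = 2 replicates), and the membrane genes behind it differed between the replicates. The 2 classes overlapped in replicate 1: Cybb and Hvcn1 lay among the cytosolic genes, between Rac1 at 7.84 and Rac2 at 9.67, and Cyba alone lay below them. The Cybb value is that of the region at the retained-intron start, and with Cybb left out, an alternative added after seeing the data, the replicate 1 difference was -1.37, between 7.02 over 2 membrane genes and 8.39. It was -1.66 with Hvcn1 left out, when it rests on replicate 1, and -1.68 with the less strict lists.

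**Figure D3:**
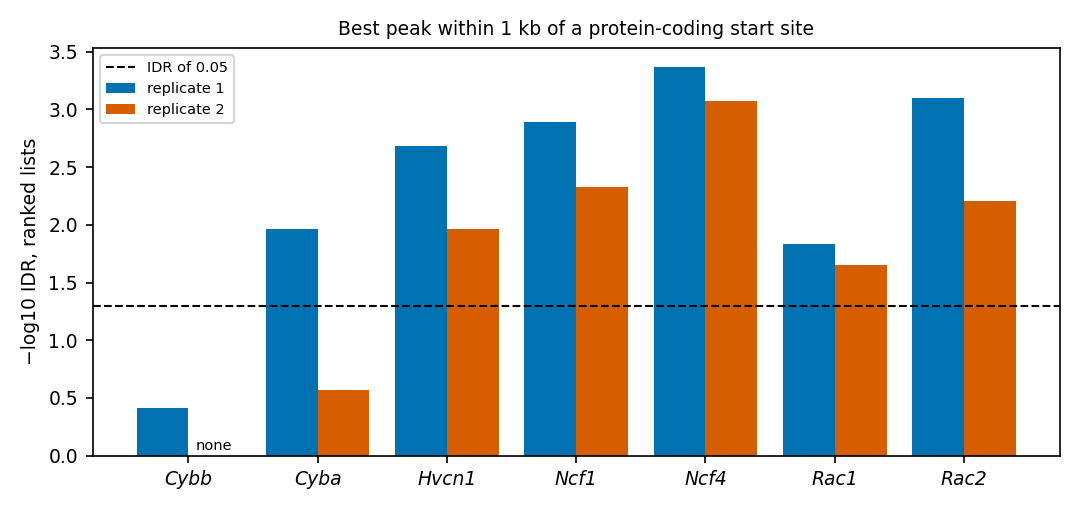
Repeatability of the peak with the highest −log10 IDR (vertical axis) within 1 kb of a protein-coding start site of each gene, in the ranked lists of replicates 1 and 2. The dashed line is an IDR of 0.05. The 5 genes open in both replicates stand above the line in both, Cyba stands above it in replicate 1 alone, and Cybb lies below it in replicate 1 with no peak in replicate 2.

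The ranked lists give the IDR of each peak. At coding starts Ncf4 had the lowest IDR in both replicates, 0.00043 and 0.000849. Rac1 passed with the highest IDR of the genes open in both replicates, 0.0146 and 0.0222. For Rac2 the best ranked peak was the intron one in both replicates, with an IDR of 0.000801 and 0.00625.

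Beyond the promoters, the 7 genes had 27 distal regions within 50 kb in replicate 1, of which 12 overlapped a region of replicate 2. At least 1 distal region in replicate 1 was found at 7 of 7 genes, against 51.4% of protein-coding genes, and at least 1 in both replicates at 6 of 7, against 27.5%. Cybb was the exception. Of the 15 regions in replicate 1 alone, 10 overlapped a less strict region of replicate 2 and 13 were in the conservative list, and replicate 2 had 0 regions that replicate 1 lacked. Summits of 13 regions lay in introns, of 14 between genes and of 0 in exons. The gene itself held 10 of them, and for 14 the nearest start site of any gene was the gene's own, so the other 13 were nearer to another gene.

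The 4 cytosolic genes held 19 of the 27 distal regions and 10 of the 12 shared ones, and the 3 membrane genes held the rest. Of the 12 shared regions, 7 had the gene's own start site nearest. Every Rac1 region, and every Rac2 region but the intron one, was nearest to another gene's start. So were some regions of Ncf1, Cybb and Hvcn1. Rac2 and Ncf4 had 6 each in replicate 1, and 2.44% of protein-coding genes had as many or more. In both replicates Rac2 had 4 and Ncf4 had 3, numbers that 1.20% and 3.75% of genes reached. Ncf1 had 5 in replicate 1 and 2 in both, Hvcn1 had 4 and 1, Cybb had 3 and 0, Rac1 had 2 and 1, and Cyba had 1 and 1. The mean over all protein-coding genes was 1.17 in replicate 1 and 0.429 in both. In the less strict lists the shared regions numbered 23, with 4 for Hvcn1 and 2 for Cybb.

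**Figure D4:**
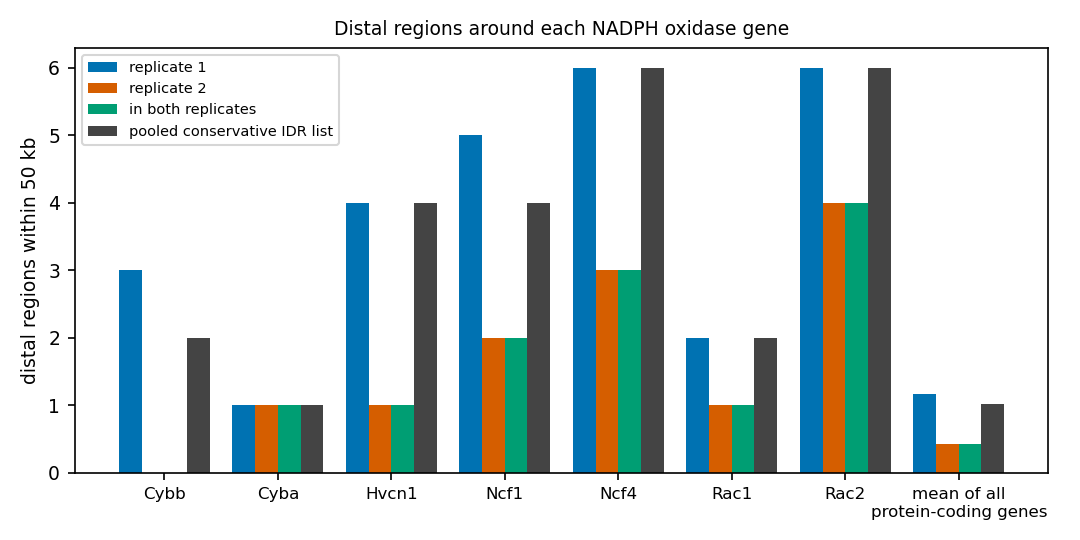
Number of distal regions (vertical axis) in the window of 50 kb around each gene's 5'-most start in replicate 1, replicate 2, both replicates and the conservative list, with the mean over all protein-coding genes at the right. Ncf4 and Rac2 reach 6 in replicate 1, and Cybb has 0 in replicate 2.

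The sequence at the summit is printed for the strongest region among those whose nearest start site was the gene's own. For Rac1 there was none, since Fam220a was the nearest gene to both of its regions. The summit base of replicate 1 with 50 bases on either side is given 5′ to 3′ on the gene's strand, with the same motif letters in capitals. All but the Cybb window were in regions found in both replicates.
Cybb, intron, chrX:9470917-9471017, minus strand: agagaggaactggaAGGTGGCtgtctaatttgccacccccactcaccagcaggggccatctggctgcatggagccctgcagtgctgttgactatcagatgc
Cyba, intron, chr8:122430405-122430505, minus strand: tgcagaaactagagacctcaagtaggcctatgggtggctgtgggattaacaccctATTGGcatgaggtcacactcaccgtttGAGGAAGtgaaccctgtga
Hvcn1, intron, chr5:122220416-122220516, plus strand: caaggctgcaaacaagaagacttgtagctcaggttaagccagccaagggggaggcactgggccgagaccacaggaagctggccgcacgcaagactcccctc
Ncf1, upstream, chr5:134232766-134232866, minus strand: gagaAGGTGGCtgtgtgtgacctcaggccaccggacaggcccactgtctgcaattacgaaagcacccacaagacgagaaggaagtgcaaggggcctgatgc
Ncf4, intron, chr15:78258366-78258466, plus strand: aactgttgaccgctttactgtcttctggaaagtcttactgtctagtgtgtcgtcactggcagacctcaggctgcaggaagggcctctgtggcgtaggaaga
Rac2, intron, chr15:78571691-78571791, minus strand: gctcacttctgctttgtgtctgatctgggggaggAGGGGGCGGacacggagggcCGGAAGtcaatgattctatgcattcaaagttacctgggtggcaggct

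The Cyba window, from the region that outranked its promoter, held GAGGAAG, a string of the myeloid factor PU.1, 32 to 38 bp downstream of the summit, and CCAAT on the other strand. The Rac2 window held the ETS string CGGAAG at 4 to 9 bp downstream, and GGGCGG overlapping AGGNGGC upstream. The Cybb and Ncf1 windows each held AGGNGGC, and the Hvcn1 and Ncf4 windows held none of the 12 strings. Over all 27 distal windows of the 7 genes GAGGAAG was in 7 (25.9%), against 15.6% of the 15565 distal windows of replicate 1, and AGGNGGC in 11 (40.7%), against 18.8%. The CEBP string TTGCNNAA was in 0 of 27, against 6.39%. Windows of 1 gene share a locus, and no test was made.

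Rac2 had the most shared distal regions, 4, while in replicate 1 it tied with Ncf4. Its shared distal region farthest upstream, at chr15:78607568-78607987, lay 34951 bp upstream in an intron of Cyth4 and had values of 12.6 and 9.82 in replicates 1 and 2. Closer to the gene, regions 19089 and 16329 bp upstream had 7.98 and 8.59 in replicate 1 and 8.50 and 8.37 in replicate 2. Their nearest start sites were those of Cyth4 and Gm36738, 5175 and 7496 bp away. The remaining shared region was the intron one that touched the promoter window. The window 16329 bp upstream held 2 GAGGAAG matches, 1 of them overlapping a composite ETS and IRF string. Replicate 1 alone had regions 26576 and 14710 bp upstream, with values of 6.56 and 6.70, which the less strict list of replicate 2 held at 4.75 and 4.96.

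At Ncf4 the strongest region was inside the gene. It lay 13615 bp downstream of the 5'-most start, at chr15:78258235-78258582, with values of 12.47 and 12.04, above 78.8% and 70.2% of distal regions in the 2 replicates. Another, 12969 bp downstream, was weak in both, at 5.79 and 5.92. The region 5110 bp upstream, chr15:78239559-78239819, had 10.2 and 9.65, and its window held AGGNGGC at 3 places. The 3 regions in replicate 1 alone had values between 5.50 and 7.65.

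Ncf1 had a pair of shared regions upstream. The one at chr5:134236863-134237226, 7422 bp upstream, had values of 8.77 and 9.04 and was nearest to the start of Gtf2i, 3998 bp away. The other, chr5:134232631-134232998, 3191 bp upstream, had 7.10 and 7.89. Its 3 further regions in replicate 1 had values from 4.53 to 7.52, and the one 42076 bp downstream lay in Gtf2ird2. Hvcn1 had 1 shared region, at chr5:122220154-122220687 in an intron 13662 bp downstream, with 9.56 and 11.1. Its other 3, with 4.56, 7.002 and 8.90 in replicate 1, had values of 5.78, 5.79 and 6.68 in the less strict list of replicate 2. Rac1's shared region, chr5:143547439-143547733, had 12.3 and 10.1 and lay 19543 bp upstream and 1127 bp from the start of Fam220a.

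**Figure D5:**
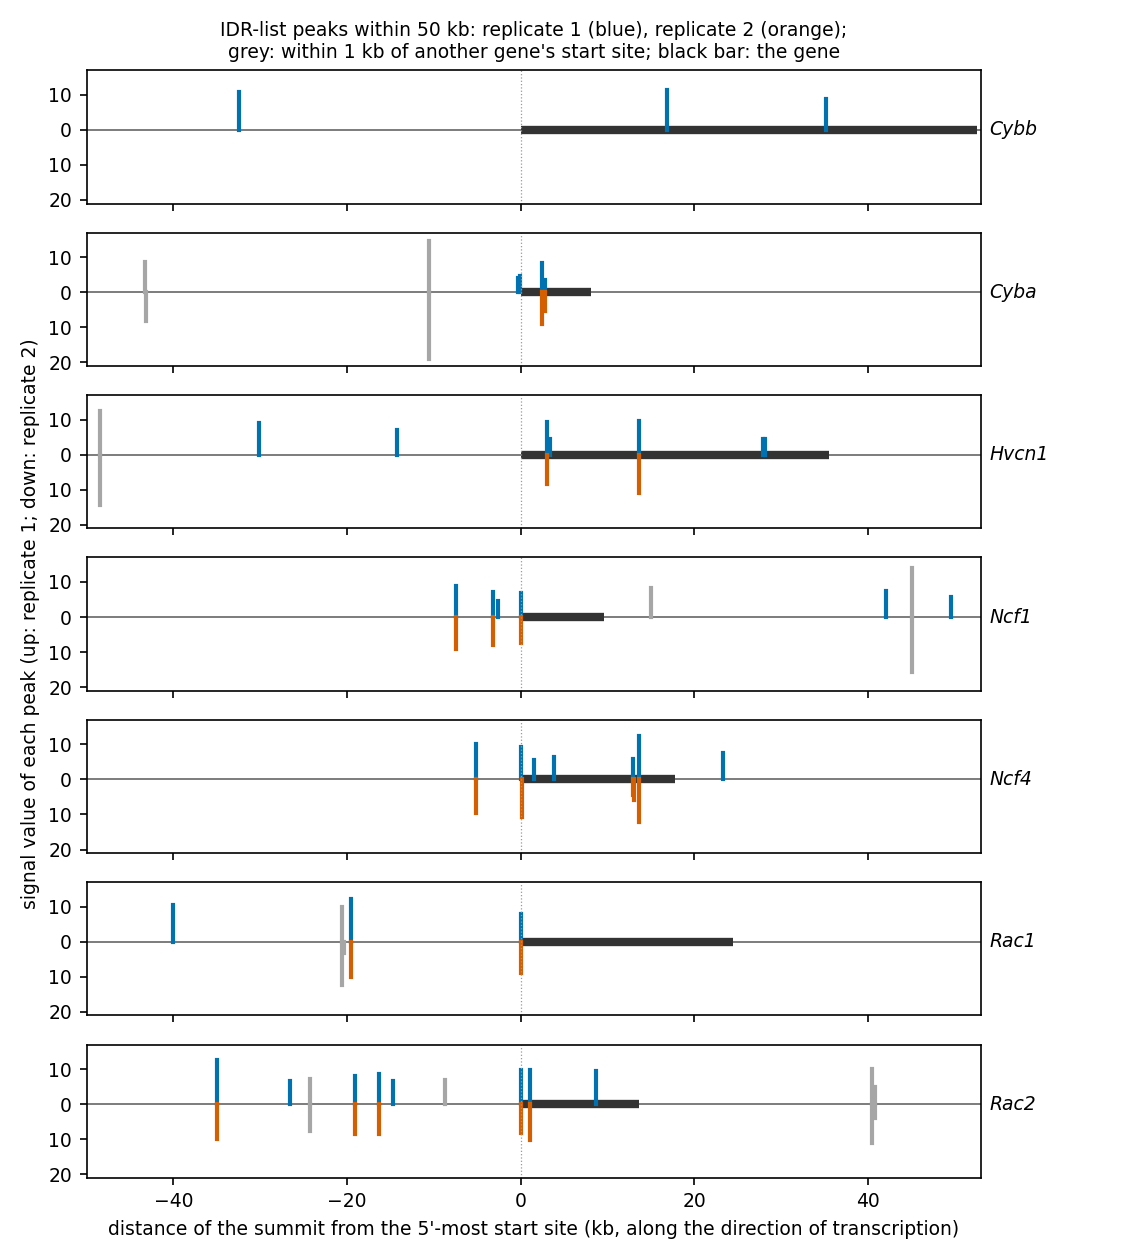
IDR-list peaks in the 50 kb on either side of each gene's 5'-most start: distance in kb along the direction of transcription (horizontal) against signal value (vertical, replicate 1 upward in blue, replicate 2 downward in orange). Grey lines are peaks within 1 kb of another gene's start site and the black bar is the gene. The Cybb row has 3 upward lines and none downward, and the Rac2 and Ncf4 rows have the most coloured lines.

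The strongest distal region had a higher value than the promoter at 7 of 7 genes in replicate 1, against 43.4% of the 7180 genes with both, and at 4 of 5 in replicate 2, against 33.1% of 3434. In this comparison a region that touched the promoter window counted as promoter alone. The excess in replicate 1 was 4.495 for Rac1, 3.70 for Cyba, 3.29 for Ncf4, 2.96 for Rac2, 2.82 for Cybb, 1.90 for Ncf1 and 0.299 for Hvcn1. The median over all genes with both was -0.894. In replicate 2 the excess was 2.67 for Hvcn1, 1.69 for Ncf1, 1.29 for Ncf4 and 1.27 for Rac1, and it was -0.270 for Rac2, with a median over all genes of -2.11. The Rac2 sign rests on that choice: its promoter value of 10.1 was that of the intron region, and the peak at the start itself had 8.22, below the strongest distal value of 9.82. The Cybb excess is likewise measured against the region inside the gene. The strongest region was nearest to another gene's start for Ncf1, Rac1 and Rac2. A gene with more distal regions has more values from which the strongest is taken. The 7 genes had a median of 4 distal regions in replicate 1, against 1 over all protein-coding genes, and of 1 against 0 in replicate 2. The shares were not adjusted for this. The distal values of the 7 genes were not high themselves. Their median was 8.47 in replicate 1 and 9.35 in replicate 2, against 9.38 and 10.5 over all distal regions.

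Other genes of the pathway were taken from lists chosen by function, to be read against the 39.8% of all genes open in both replicates. The share of all genes was 47.1% in replicate 1, and 49.8% in both replicates with the less strict lists. Promoter regions of these genes, here and in the next paragraph, are those of the IDR lists unless another list is named. None of 9 other NOX enzymes and partners was open in both replicates, Duox1 and Duox2 had no promoter region, and Noxo1, an organiser of another oxidase, had 4.40 in replicate 2. Among 10 genes of oxidase assembly and the Rac switch, 6 were open in both replicates and 9 in replicate 1, led by the Rac exchange factor Prex1 (11.9 and 14.4), the Rac-activated kinase Pak2 (11.4 and 13.8) and the exchange factor Dock2 (12.3 and 12.6). Arhgdib had no promoter region in the IDR lists and 2 shared distal regions. In the less strict lists all 10 genes of this group were open in both replicates, Arhgdib among them. Of 10 activating kinase genes, 6 were open in both and 8 in replicate 1. The highest mean values were at Prkcb (12.7 and 14.2), Mapk14 (10.4 and 13.6) and Pik3r5 (11.9 and 11.1). Btk and Prkca had none in the IDR lists, and in the less strict lists 9 of the 10 were open in both replicates.

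Most genes that supply NADPH or handle peroxide were open in both replicates. Of 6 NADPH supply genes 5 were open in both replicates: Idh1 had 20.6 and 21.6, Pgd of the pentose phosphate pathway 14.4 and 17.6, and Taldo1 13.4 and 14.5, and Me1 had none. Of 8 peroxide handling genes 7 were open in both, among them the superoxide dismutase Sod2 (16.7 and 15.0), the glutathione peroxidase Gpx4 (12.7 and 16.4) and the catalase Cat (12.3 and 15.1). Mpo, the myeloperoxidase of granules, which is made early in neutrophil development, had no promoter region. These values, the 3 highest means of each list, were above the highest of the 7 oxidase genes in the same replicate, 9.67 and 10.8. The lowest open promoter of the 2 lists, that of the glutathione peroxidase gene Gpx1, had 8.85 and 8.83, within the range of the oxidase genes.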

How the data were processed

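Peak lists of 2 ATAC-seq libraries labelled as mouse neutrophils, replicates 1 and 2, were used. The labels give mm10; how reads were aligned, shifted for the transposase and called into peaks is not given in the sources used here. The deposited lists hold a signal value in column 7, a score that the authors gave each peak and that the file headers do not define, and the authors' −log10 p in column 8, whose test is not named. Per the file headers, ranked lists give −log10 IDR. No read counts were used, so depth is unknown; the number of regions differs between replicates, and values of separate lists may differ in scale, which the SD over 2 replicates includes.

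The reference was GRCm38.p6, the same build, with GENCODE M21; 0 listed peaks lay past a chromosome end. Overlapping peaks (at least 1 bp) were merged, keeping the strongest peak's summit. Start sites of all transcripts were used, and genes were collapsed by symbol. CpG-rich promoters had a CpG observed-to-expected ratio of 0.6 or more and a GC share of 0.5 or more over 500 bp on either side of the 5'-most start. Motifs were searched in 50 bp on either side of summits and in the 250 bp before each RefSeq start, although the design had planned a promoter window that also took in the 50 bp after it. Python 3.11.15, pandas 2.3.3, numpy 2.4.6 and pysam 0.24.0 were used, and the counting was tested on simulated peaks.

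The genes, lists and motifs were chosen with earlier results of these data known. The text names the 7 genes in full and, of each pathway list, the 3 with the highest mean promoter value. It also names up to 2 of each list, in alphabetical order, with no promoter peak in either IDR list. Noxo1, Gpx1 and the markers were named after their values were seen. Alternatives were other lists, thresholds, windows, start sites and each replicate alone.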

Additional observations from a re-analysis of the deposited data

How the results depend on the processing

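The count of 5 genes with an open promoter in both replicates was 5 to 7 with 1 replicate left out, the higher number without replicate 2, and it fell to 1 (Ncf4) when peaks at or above the median signal value of their list were used. It was 6 with the less strict lists, the conservative list or promoters of 2.5 kb, 4 when only the 5'-most start counted, which drops Hvcn1, and 5 with summits in the window. Start sites of coding transcripts alone, an alternative chosen after seeing the data, gave 5, and 6 in replicate 1 alone, where Cybb was lost. The 12 shared distal regions became 23 with the less strict lists, 25 in the conservative list and 2 with peaks at or above the list's median. With 1 replicate left out they numbered 12 to 27, the higher number without replicate 2. They were 17 within 100 kb, 11 within 25 kb, 12 with an overlap of 50% of the shorter region and 11 without regions that touch the gene's own promoter window. The membrane minus cytosolic difference of -0.838 was -1.68 with the less strict lists, -1.53 in the conservative list, -1.66 without Hvcn1, -1.002 without Rac1 and -1.12 without Cybb, the last chosen after seeing the data, and lay between -0.864 and -0.813 with 1 replicate left out. The conservative list put the promoter values of Hvcn1 (10.3), Ncf1 (7.47) and Rac2 (10.3) more than 1 SD above their means over replicates, and those of Ncf4 and Rac1 within it. Cyba, with 1 replicate, has no SD. Leaving out 1 of 2 replicates cannot move a mean by more than 1 SD and shows nothing of stability. The membrane minus cytosolic difference stayed negative under every alternative run. The count of 1 at the median threshold has no share of all genes beside it. The same holds for the counts with 2.5 kb promoters, the 5'-most start, summits in the window and coding starts alone. Whether the count of open promoters stayed above that share under these settings is not known. No paired analysis was possible because the samples form 1 group. Depth is unknown, so a region missing from replicate 2, which had 14548 regions against 27709, cannot be told apart from one not detected there.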

Other observations

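Promoters of some neighbouring genes had higher values than the oxidase promoter in whose window they lay. The region at the start of Mvd, an enzyme of cholesterol synthesis 10595 bp upstream of Cyba, had 14.7 in replicate 1 and 19.1 in replicate 2, where the Cyba promoter had 4.77 and no IDR peak. The Ppp1cc promoter, 48501 bp upstream of the 5'-most Hvcn1 start, had 12.3 and 14.3. The Fam220a promoter, 20563 bp upstream of Rac1, had 10 and 12.4. No region at another gene's start was found within 50 kb of Cybb or Ncf4 in the IDR list of either replicate. Genes named here were chosen after their values were seen.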
